A study of Mus musculus with 6 samples.

Results

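Ephrins, slits and netrins are extracellular or membrane-bound cues that steer growing axons, and Eph, Robo and Unc5 proteins are among their receptors. Protein-coding genes of these families were taken from the count table by their GENCODE M21 symbols, which gave 34 members of 23508 genes. These are 5 ephrin-A, 3 ephrin-B, 7 EphA, 5 EphB, 3 Slit, 4 Robo, 4 netrin and 3 Unc5 genes. Dcc, Epha5, Epha6 and Unc5d also have symbols in GENCODE M21 that fit the rule, but they have no row among the 23508 genes. They could therefore not be analysed here.

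RNA was measured by poly(A)-selected sequencing in tumors of 4T1, a mouse mammary carcinoma line that the labels tie to triple-negative breast cancer (TNBC). There are 3 tumors collected before a first peak in recorded neural activity and 3 with that peak, and the labels give no host strain, age or treatment. Where 3 values are given for a group, they follow the replicate numbers. The comparison asks what differs in tumor RNA when that activity sets in. Nothing in the labels says that the tumors came from separate animals, so a p-value here speaks of the spread among these 6 samples, which may be technical, and the time of collection and the peak cannot be told apart.

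Ephrins are unusual ligands in that they are held on the cell surface, ephrin-A by a lipid anchor and ephrin-B by a membrane-spanning segment, and contact with an Eph receptor tyrosine kinase can signal into both cells. Secreted Slit proteins repel axons through Robo receptors, while netrins attract through Dcc and repel through Unc5 receptors. Outside the nervous system the same families set borders between epithelial cells and between arteries and veins. Ephrin-B2 marks arteries, EphB4 marks veins, and Robo4 and Unc5B are found on endothelium.

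Total counts ran from 10591067 to 14549357 per tumor, and the members' counts summed over all tumors ran from 8 (Robo3) to 14516 (Unc5b). Carcinoma markers such as Krt8 (1541 ± 140 and 1343 ± 337 CPM, counts scaled to library size, SD, n = 3 before and with peak) and Epcam (356 ± 62.6 and 267 ± 63.8 CPM) were present in both groups. The mean log2 CPM of 12 carcinoma epithelial markers was 6.73 to 7.10 before the peak and 6.37 to 6.61 at the peak, and that of 13 macrophage markers was 6.37 to 6.81 and 7.16 to 7.57, so neither list overlapped between groups on this scale. As summed levels the macrophage list did not overlap either (2123 to 3505 and 3959 to 5668 CPM), while the carcinoma list did, at 3459 to 4441 CPM before the peak and 2728 to 4041 CPM with it. Erythroid markers did not overlap, with summed levels of 137 to 250.5 CPM before the peak and 277 to 2154 CPM with it, and skeletal muscle markers had their highest sums, 1667 and 1591 CPM, in with-peak replicates 2 and 3, against 66.2 to 317 CPM elsewhere. The 9 neuronal markers with a row summed to 3.05 to 5.38 CPM before the peak and 6.8 to 10.4 CPM with it. In bulk tumor, fewer cells of a type and less RNA per cell cannot be told apart, and the part of these lists in the results that follow was not tested.

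None of these guidance genes passed the test of with-peak against before-peak tumors. Of the 34 members, 27 passed the filter on low counts, and the edgeR quasi-likelihood test with Benjamini-Hochberg adjustment over all 16755 tested genes called 0 of them, where 0% of all genes were called. DESeq2 called 0 members (1.52% of all genes) and limma-voom called 0. At an unadjusted p under 0.05 there were 3 members, 11.1% of those tested, against 9.5% of all genes. All 3 were lower with peak, where 3.38% of all genes were lower at that level, and 0 were higher, where 6.12% of all genes were. Without before-peak replicate 2, 1 of 29 tested members was lower at that level, where 1.98% of all genes were, and without before-peak replicate 3 it was 5 of 28, where 3.59% of all genes were. With library size alone as the scaling, 6 members were lower and 0 higher, where 6.09% of all genes were lower, and over all genes the split of 1025 higher and 567 lower became 768 and 1020. The median log2 fold change was -0.11 for the 27 members and -0.02 for all genes tested, with 11 members above 0 and 16 below it.

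The 3 members with an unadjusted p under 0.05 are Slit2, Efnb1 and Ephb6. Their upstream sequences are shown because these genes had the smallest p-values of the families and differ in the motifs they hold. Each line gives the 250 bases before the RefSeq start (GRCm38.p6, the assembly that mm10 names), on the plus strand, for Slit2 at chr5:47982905-47983154, Efnb1 at chrX:99135811-99136060 and Ephb6 at chr6:41605261-41605510. Capitals mark the GC box GGGCGG, the TATA box TATAAA and the half-site TGACG of the cAMP response element, searched on both strands.
Slit2: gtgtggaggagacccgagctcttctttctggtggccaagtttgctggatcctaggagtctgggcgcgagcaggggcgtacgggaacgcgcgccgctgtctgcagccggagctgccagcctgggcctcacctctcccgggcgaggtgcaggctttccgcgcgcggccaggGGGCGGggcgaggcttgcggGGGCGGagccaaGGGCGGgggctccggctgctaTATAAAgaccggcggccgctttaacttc
Efnb1: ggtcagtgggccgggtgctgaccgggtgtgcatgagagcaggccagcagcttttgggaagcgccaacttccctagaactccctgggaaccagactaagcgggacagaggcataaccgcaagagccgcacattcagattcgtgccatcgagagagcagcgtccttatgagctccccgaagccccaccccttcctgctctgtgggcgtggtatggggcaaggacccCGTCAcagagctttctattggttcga
Ephb6: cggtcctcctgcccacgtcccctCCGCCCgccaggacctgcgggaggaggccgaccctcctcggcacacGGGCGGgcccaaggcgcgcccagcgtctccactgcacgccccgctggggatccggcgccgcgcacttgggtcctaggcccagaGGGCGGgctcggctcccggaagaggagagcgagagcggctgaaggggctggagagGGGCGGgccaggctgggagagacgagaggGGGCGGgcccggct
The Slit2 sequence holds 3 GC boxes and a TATA box that begins 28 bases before the start, the Ephb6 sequence holds 5 GC boxes and no TATA box, and the Efnb1 sequence holds neither but has 1 half-site on the opposite strand, 26 bases before the start. The RefSeq start lies 17 bases (Slit2) and 29 bases (Ephb6) inside the GENCODE gene, and 69 bases before the GENCODE start of Efnb1.

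Windows of 300 bases, 250 before and 50 after the start, were found in RefSeq for 31 of the 34 members. A GC box lay in 21 of them (67.7%), against 35.66% of all 32851 windows, which include those of noncoding genes. A TATA box lay in 2 (6.5%, against 13.62%), those of Slit2 and Efnb2. The half-site lay in 7 (22.6%, against 20.81%), and the whole cAMP response element TGACGTCA, which contains it, in 1 (3.2%, against 1.79%), that of Epha2. These are matches of letters and carry no measure of binding.

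Slit2, a secreted repellent (ENSMUSG00000031558, chromosome 5, 47983138 to 48307733), had the smallest p-value of the families. It was at 18.3, 18.6 and 28.9 CPM before the peak and at 14.8, 13.7 and 11.5 CPM with it. The groups did not overlap, and before-peak replicate 3 stood above the rest. That tumor was the highest in summed B and plasma cell markers (729 against 19.9 to 261 CPM in the others). It was also the highest in T and NK cell markers (163.7 against 15.8 to 100.6 CPM) and in Schwann and glial markers (122.3 against 87.6 to 105.8 CPM). The log2 fold change was -0.71 (SE 0.22, unadjusted p = 0.0107, edgeR adjusted p = 0.390), or -0.46 without that tumor (unadjusted p = 0.0531). Slit3, the most abundant Slit per length, was at 46.4 ± 8.77 and 52.8 ± 9.67 CPM (SD, n = 3; log2 fold change 0.19, SE 0.18). Its 2 highest tumors, with-peak replicate 2 at 63.6 and before-peak replicate 3 at 56.3 CPM, were also the highest in fibroblast markers (18330 and 12350 summed CPM). Slit1 had means of 2.83 ± 0.94 and 3.92 ± 0.88 CPM (log2 fold change 0.47, SE 0.37).

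Within the Slit family the share of Slit2 in the summed FPKM (CPM per kilobase of exon) was 9.42%, 8.53% and 10.5% before the peak and 6.27%, 4.56% and 5.31% with it. The groups did not overlap in this share. Slit3 held 83.7% to 86.0% of the family before the peak and 86.8% to 88.6% with it. These shares depend on the exon length, which for Slit2 is 25.4 kb over all exons. With the longest protein-coding transcript as the length, Slit2 held 17.1% to 20.6% of the family in before-peak tumors and 9.57% to 12.9% in the others. The groups again did not overlap, which is no separate check, because a new length scales a gene by the same factor in every tumor. Over all families, the groups did not overlap in the shares of 6 of the 34 members by either length. Shares within a family are tied to each other, and no background over all genes was computed for this count. It is not read as an excess.

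Among the receptors of Slit, Robo1 (chromosome 16, 72308306 to 73046095) was lower with peak in every tumor, as Slit2 was. It was at 7.46, 8.53 and 10.1 CPM before the peak and at 7.22, 6.42 and 4.46 CPM with it. The nearest values of the groups, 7.46 and 7.22 CPM, differed by less than the spread within each. The log2 fold change was -0.52 (SE 0.28, edgeR adjusted p = 0.602), or -0.35 without with-peak replicate 3. Robo4, the endothelial member, took 79.7% to 90.8% of the Robo FPKM in each tumor and was at 13.7, 19.0 and 17 CPM before the peak and 19.2, 23.5 and 11.5 CPM with it. Both extremes were with-peak tumors, and the log2 fold change was 0.13 (SE 0.26, edgeR adjusted p = 0.904). The mean log2 CPM of 18 endothelial markers ordered the tumors as Robo4 did, from with-peak replicate 3 (4.63) through before-peak replicates 1 (4.75), 3 (4.93) and 2 (4.98) to with-peak replicates 1 (5.14) and 2 (5.77). Unc5b, Ephb4 and Efnb2, described above as vessel genes, did not follow this order. In with-peak replicate 2 they were at 171, 131 and 66.6 CPM. Their highest values were 228 (before-peak replicate 2), 179 (before-peak replicate 1) and 83.2 CPM (before-peak replicate 2). The part of endothelial content in these genes was not tested. Robo4 was below 0 on the log2 scale without with-peak replicate 2, at -0.11. Robo2 and Robo3, receptors of the nervous system, had 66 and 8 counts in all and were not tested. Robo3 had 0 counts in before-peak replicates 1 and 2 and with-peak replicate 1, which allows up to 0.241, 0.235 and 0.210 CPM. The neighbouring genes Robo4 and Robo3 lie 553 bases apart on opposite strands of chromosome 9.

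**Figure D1:**
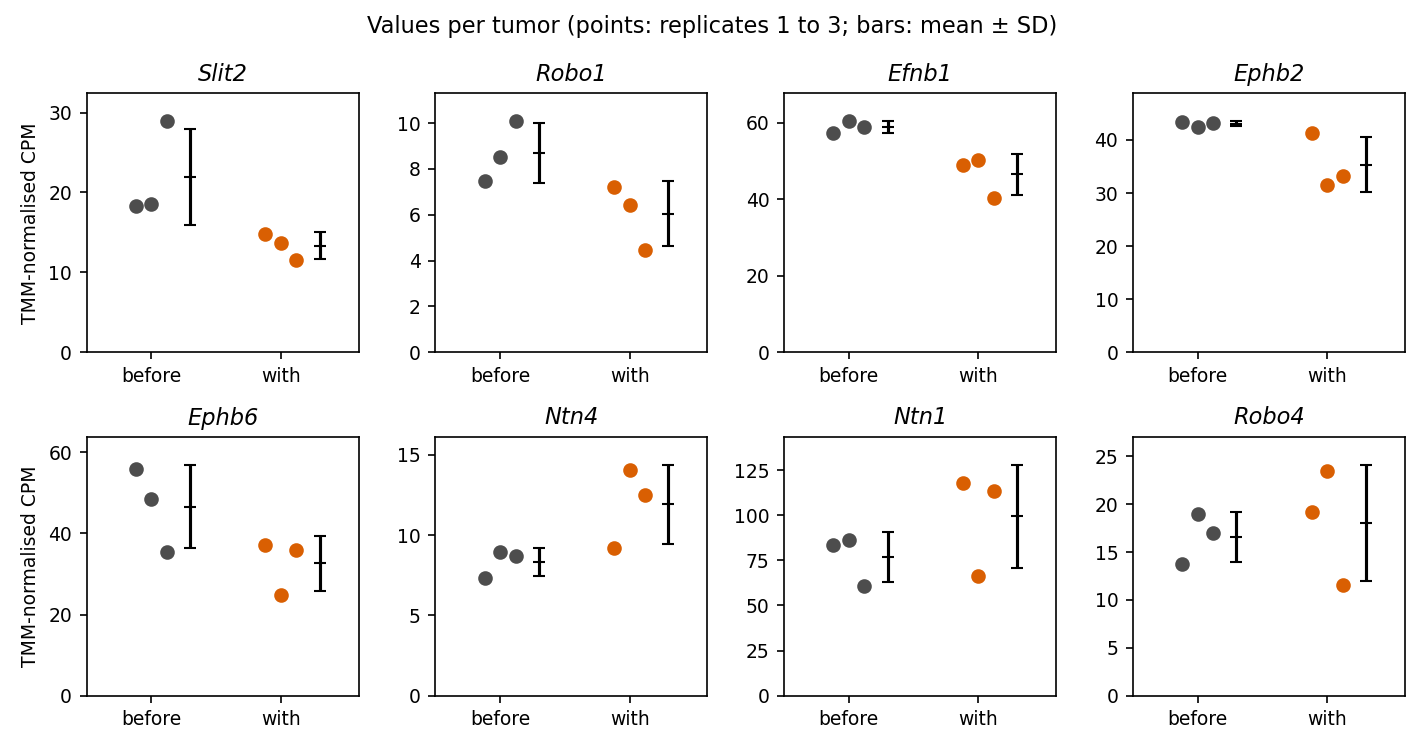
TMM-normalised CPM of 8 guidance genes in each tumor (points, replicates 1 to 3 from left to right), with the mean ± SD of 3 tumors beside them, before and with the peak. Slit2, Robo1, Efnb1 and Ephb2 do not overlap and are lower with peak, Ntn4 does not overlap and is higher, and Ephb6, Ntn1 and Robo4 overlap.

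The ephrin-B genes summed to 28.9, 30.1 and 27.1 FPKM before the peak and 24.9, 24.7 and 21.3 FPKM with it. This was the 1 of 8 family sums in which the groups did not overlap, the other 7 overlapped, and the sums were not tested. No background was computed for such sums, and this count is not read as an excess. Of all single genes tested, 15.5% did not overlap. Within the family only Efnb1 did not overlap, and Efnb3 had a positive log2 fold change. The sum was carried by Efnb1 (54.8% to 62.8% of it) and Efnb2. Efnb1, a transmembrane ligand of EphB receptors (ENSMUSG00000031217, chromosome X, 99136130 to 99148991), was at 57.2, 60.4 and 58.8 CPM before the peak and 49.0, 50.2 and 40.4 CPM with it. The before-peak tumors lay close to each other and above all with-peak tumors. Its log2 fold change was -0.34 (SE 0.12, unadjusted p = 0.0232, edgeR adjusted p = 0.451). The unadjusted p was 0.0908 without with-peak replicate 3 (log2 fold change -0.24) and 0.0625 without before-peak replicate 2 (-0.32). Efnb2, the arterial ephrin, was at 82.0, 83.2 and 67.2 CPM before the peak and 69.2, 66.6 and 61.8 CPM with it. One before-peak tumor, replicate 3, was inside the range of the with-peak tumors, and the log2 fold change was -0.23 (SE 0.12, edgeR adjusted p = 0.602), or -0.33 without that tumor (unadjusted p = 0.0292). Efnb3 was near 1 to 2 CPM, at 1.20 ± 0.33 and 1.70 ± 0.38 CPM (log2 fold change 0.49, SE 0.47).

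EphB receptors, which bind ephrin-B, included another of the 3 genes with the smallest p-values. Ephb6, a family member with an inactive kinase domain (ENSMUSG00000029869, chromosome 6, 41605482 to 41620509), was at 55.9, 48.5 and 35.5 CPM before the peak and 37.2, 24.9 and 35.9 CPM with it. Before-peak replicate 3 was below 2 of the 3 with-peak tumors, and the log2 fold change was -0.51 (SE 0.21, unadjusted p = 0.0351, edgeR adjusted p = 0.497). Its value was -0.35 (unadjusted p = 0.103) without with-peak replicate 2. Leaving out the first or the second before-peak tumor gave -0.36 and -0.49 (unadjusted p = 0.138 and 0.0819). Ephb2, a receptor that also sorts epithelial cells in the gut (chromosome 4, 136647539 to 136835988), was at 43.4, 42.5 and 43.2 CPM before the peak and 41.4, 31.6 and 33.2 CPM with it. With-peak replicate 1 lay close under the before-peak tumors, and the log2 fold change was -0.28 (SE 0.14, edgeR adjusted p = 0.570). Without that tumor it was -0.41 (unadjusted p = 0.0147).

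Ephb4, the venous receptor of ephrin-B2, was the most abundant EphB gene per length. It was at 179, 156 and 129 CPM before the peak and 177, 131 and 123 CPM with it, and the 2 ranges largely coincided (log2 fold change -0.11, SE 0.17). The sign of this value turns without before-peak replicate 1 (0.01). Ephb4 took 65.0% to 65.6% of the EphB FPKM before the peak and 66.2% to 71.8% with it, so that its share did not overlap while its level did. Ephb3 was at 12.3 ± 2.31 and 11.7 ± 4.30 CPM, and Ephb1 at 0.91 ± 0.27 and 1.16 ± 0.21 CPM (log2 fold changes -0.06 and 0.35). The sign of Ephb3 also turns, with 0.10 without before-peak replicate 1.

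Of the non-overlapping members of the 27 tested, 4 were lower with peak (Slit2, Robo1, Efnb1 and Ephb2) and 1 was higher (Ntn4). The 5 are 18.5% of those tested, where 15.5% of all genes did not overlap. The 4 lower genes are 14.8%, where 7.38% of all genes were apart in that direction, and 8.13% were apart in the other. Of the 12 carcinoma markers, 11 had a log2 fold change below 0 (median -0.23) and 4 were lower at an unadjusted p under 0.05 (33.3%, against 3.38% of all genes). EdgeR called 0 of them over all genes, and their summed levels overlapped between groups. The part of tumor cell content in the levels of Efnb1, Ephb2 and Ephb6 was not tested.

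**Figure D2:**
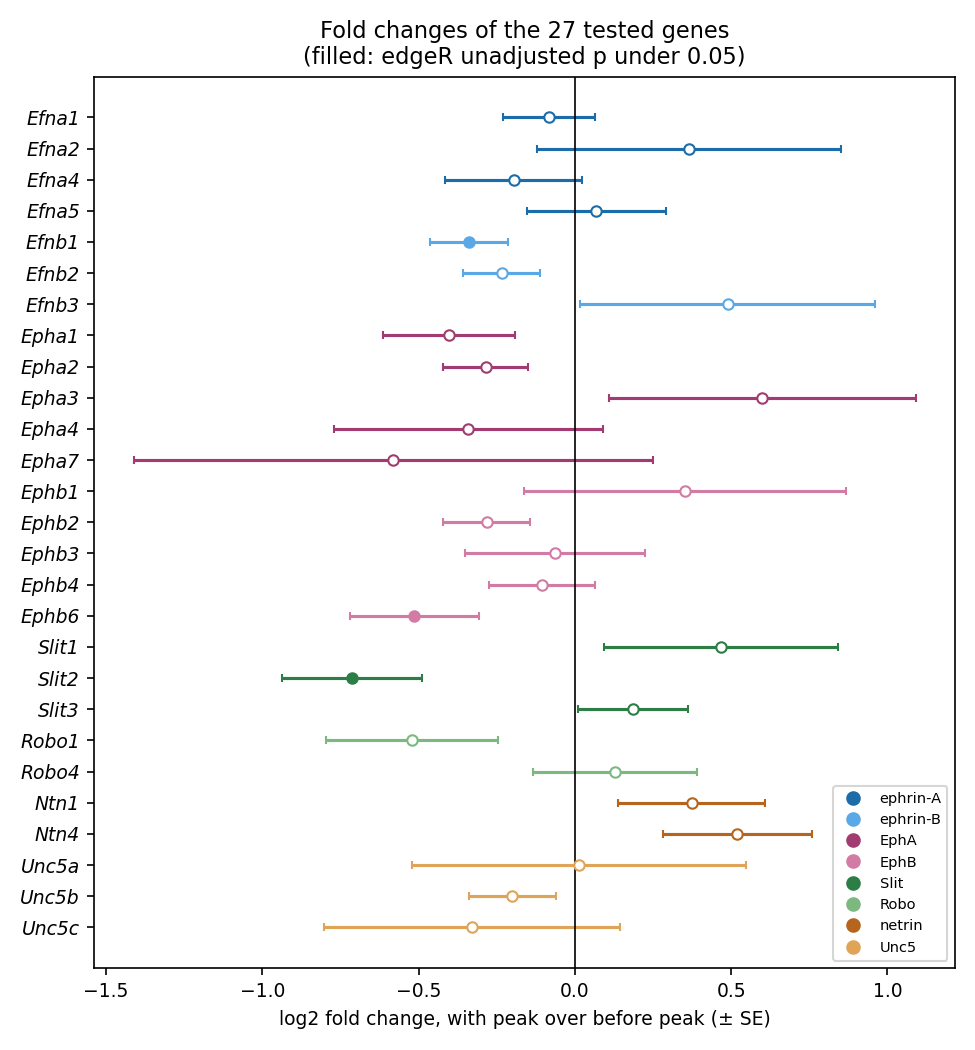
Log2 fold change of each of the 27 tested genes, with-peak over before-peak tumors, with its standard error as a bar and families in colour; filled points have an edgeR unadjusted p under 0.05. The values run from -0.71 (Slit2) to 0.60 (Epha3), and the filled points are Efnb1, Ephb6 and Slit2, all left of 0.

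EphA receptors were led by Epha2, an epithelial receptor well known in carcinoma, which took 67.8% to 76.6% of the EphA FPKM in each tumor. Epha2 (chromosome 4, 141301240 to 141329384) was at 155, 179 and 133 CPM before the peak and 123, 120 and 140 CPM with it. With-peak replicate 3 lay above before-peak replicate 3, and the log2 fold change was -0.29 (SE 0.14, edgeR adjusted p = 0.548). It was -0.17 without before-peak replicate 2, and leaving out either of those 2 tumors gave -0.35 (with-peak, unadjusted p = 0.0462) and -0.39 (before-peak, unadjusted p = 0.0173). Epha1, also epithelial, was at 54.9, 48.1 and 48.1 CPM before the peak and 38.6, 26.1 and 49.8 CPM with it. With-peak replicate 3 lay within the before-peak range, and the log2 fold change was -0.40 (SE 0.21, edgeR adjusted p = 0.605). It was -0.64 without that tumor (unadjusted p = 0.0110) and -0.19 without with-peak replicate 2. Exons of Epha1 share 236 bases with Zyx on the opposite strand, so its counts are uncertain to that extent. Epha4 was at 4.55 ± 2.07 and 3.59 ± 1.04 CPM, Epha3 at 1.68 ± 0.71 and 2.54 ± 1.08 CPM, and Epha7 at 0.75 ± 0.31 and 0.49 ± 0.53 CPM (log2 fold changes -0.34, 0.60 and -0.58, each with an SE of at least 0.43). Epha8 and Epha10 had 27 and 33 counts in all and were not tested.

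Ephrin-A genes, the ligands of these receptors, had a median log2 fold change of -0.01 over 4 tested members, and none of the 4 had groups that did not overlap. Efna1, a ligand of EphA2, was at 72.2, 69.3 and 54.6 CPM before the peak and 70.4, 55.2 and 59.4 CPM with it, with overlapping ranges (log2 fold change -0.08, SE 0.15, edgeR adjusted p = 0.888). Efna4 was at 24.7, 21.1 and 16.5 CPM before the peak and 22.7, 16.5 and 15.1 CPM at the peak (log2 fold change -0.20, SE 0.22), and it shares 168 exon bases with a gene on the opposite strand. Efna5 had means of 40.7 ± 10.7 and 42.7 ± 9.48 CPM (log2 fold change 0.07, SE 0.22). Efna2 was at 1.38 ± 0.57 and 1.77 ± 0.30 CPM (0.36, SE 0.49). Efna3, which was not tested, had 32 counts in all and 0 in before-peak replicate 2, which allows up to 0.235 CPM. Efna1, Efna3 and Efna4 lie next to each other on chromosome 3 on the same strand, with gaps of 32.8 and 10.4 kb, yet Efna3 was at 0.18 FPKM on average beside 34.7 for Efna1 and 12.2 for Efna4.

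Netrin genes were the only family in which every tested member had a positive log2 fold change, and this covers 2 genes. Ntn4, a netrin of basement membranes (ENSMUSG00000020019, chromosome 10, 93640681 to 93747207), was at 7.30, 8.93 and 8.67 CPM before the peak and 9.19, 14.0 and 12.5 CPM with it. All with-peak tumors lay above all before-peak tumors, the first of them narrowly, and the log2 fold change was 0.52 (SE 0.24, unadjusted p = 0.0565, edgeR adjusted p = 0.536). Without with-peak replicate 1 it was 0.68 (unadjusted p = 0.0217). The 2 highest tumors, with-peak replicates 2 and 3, were those high in skeletal muscle markers. They were also the highest in summed erythroid markers (1457 and 2154 CPM) and macrophage markers (5668 and 4373 CPM). Ntn1, the classical netrin (chromosome 11, 68209364 to 68400823), was at 83.2, 86.1 and 60.7 CPM before the peak and 118, 66.4 and 114 CPM with it. With-peak replicates 1 and 3 were above all other tumors and with-peak replicate 2 was below 2 before-peak tumors. The log2 fold change was 0.37 (SE 0.24, edgeR adjusted p = 0.673), or 0.59 without with-peak replicate 2 (unadjusted p = 0.00475, adjusted p = 0.501) and 0.23 without either before-peak replicate 3 or with-peak replicate 1. Ntn3 and Ntn5 had 49 and 17 counts in all and were not tested. Both overlap a gene on the opposite strand, and Ntn3 also one on its own strand.

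Unc5b, a netrin receptor of endothelium and other cells, had the highest counts of all members and made up 96.8% to 99.1% of the Unc5 FPKM in each tumor. It was at 226, 228 and 168 CPM before the peak and 196, 171 and 175 CPM with it. Before-peak replicate 3 was the lowest of the 6, and the log2 fold change was -0.20 (SE 0.14, edgeR adjusted p = 0.703). Without that tumor it was -0.33 (unadjusted p = 0.0270), and without before-peak replicate 2 it was -0.13. Unc5a, which shares 34 exon bases with Hk3 on the opposite strand, was at 2.27 ± 0.94 and 2.31 ± 1.17 CPM, a log2 fold change of 0.01 (SE 0.53) that turns to -0.05 with library size alone as the scaling. Unc5c had means of 1.38 ± 0.32 and 1.09 ± 0.11 CPM (log2 fold change -0.33, SE 0.47).

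**Figure D3:**
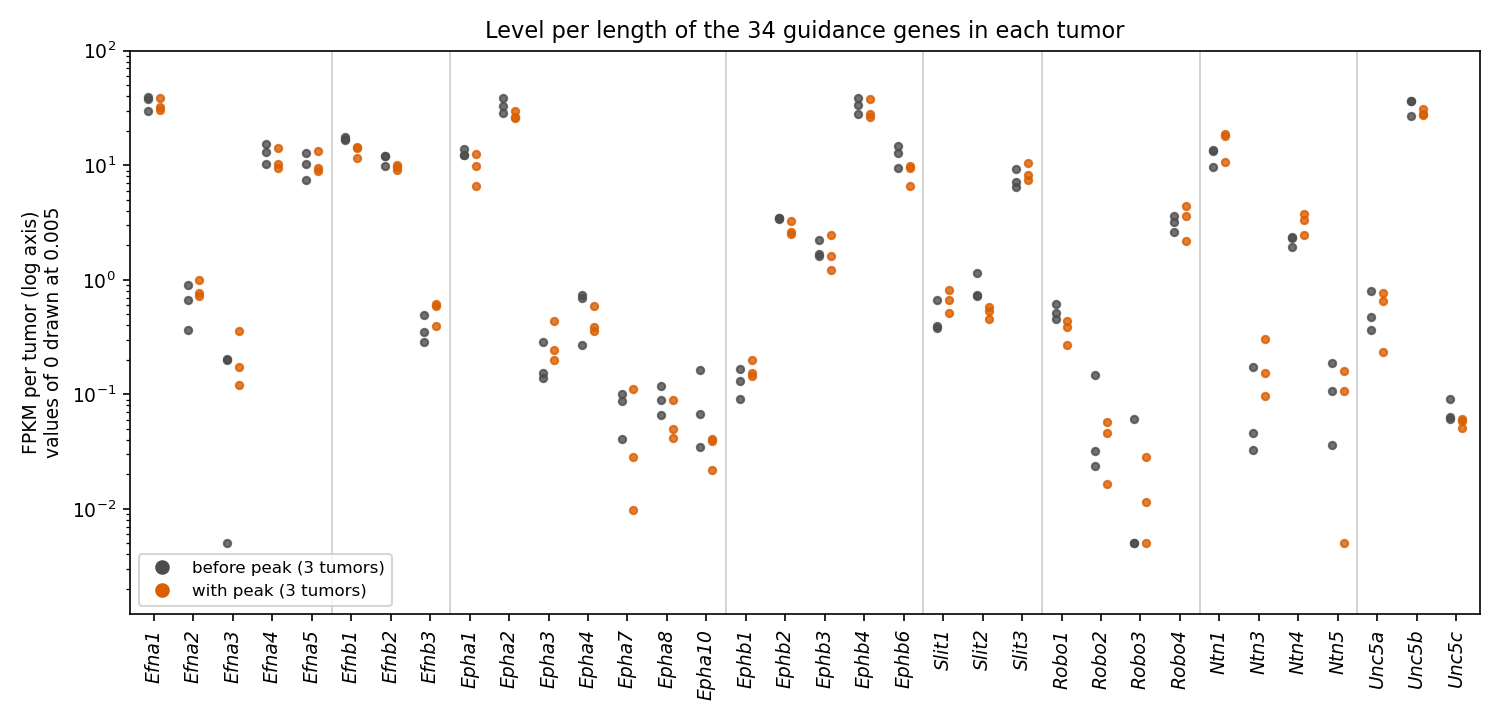
FPKM of each of the 34 members in each tumor on a log axis, grouped by family, before the peak (grey) and with it (orange); values of 0 are drawn at 0.005. Efna1, Ephb4, Unc5b and Epha2 stand near 30 FPKM, and within each gene the groups lie close together compared with the range between genes.

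Per length, 4 genes led the families at close levels. Efna1 was at 35.7 ± 5.15 and 33.7 ± 4.29 FPKM (SD, n = 3, before and with peak), Ephb4 at 33.3 ± 5.41 and 31.0 ± 6.28, Unc5b at 33.1 ± 5.46 and 28.8 ± 2.10, and Epha2 at 33.3 ± 4.99 and 27.3 ± 2.37 FPKM. In each group the means of these genes lay within about 1 SD of their neighbours in this order, so the order is not fixed by these data. Next came Efnb1 (15.2 FPKM over all tumors), Ntn1 (14.0), Efna4 (12.2) and Epha1 (11.3), followed by Ephb6, Efnb2 and Efna5 between 10.3 and 10.5 FPKM. Slit3 was at 8.18, Robo4 at 3.27, Ephb2 at 3.11, Ntn4 at 2.70 and Ephb3 at 1.81 FPKM, and the other 18 members were below 1 FPKM. With the longest protein-coding transcript as the length, 7 of the first 8 stayed among them and Efnb2 took the place of Efna4. By that length Slit2 was at 1.77 in place of 0.69 FPKM and Robo1 at 0.97 in place of 0.45 FPKM, so that 17 members were below 1 FPKM.

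Receptor and ligand of a pair were compared within each tumor as a log2 ratio of counts, and the groups by an exact permutation test, two-sided, which cannot give a p below 0.1 with 3 against 3 tumors. Unc5b to Ntn1 was at 1.44, 1.40 and 1.46 before the peak and 0.73, 1.36 and 0.62 with it, so that every with-peak tumor was lower, replicate 2 by little. The difference of the means was -0.53 (1.44 ± 0.03 and 0.90 ± 0.40, SD, n = 3; exact permutation p = 0.1, adjusted p = 0.4 over 4 ratios). The other 3 ratios overlapped. Ephb4 to Efnb2 was at 0.99 ± 0.12 and 1.11 ± 0.21 (exact permutation p = 0.5, adjusted 0.5), and Epha2 to Efna1 at 1.25 ± 0.14 and 1.05 ± 0.22 (exact permutation p = 0.3, adjusted 0.5). Robo1 to Slit2 was at -1.30 ± 0.20 and -1.14 ± 0.17 (exact permutation p = 0.4, adjusted 0.5).

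**Figure D4:**
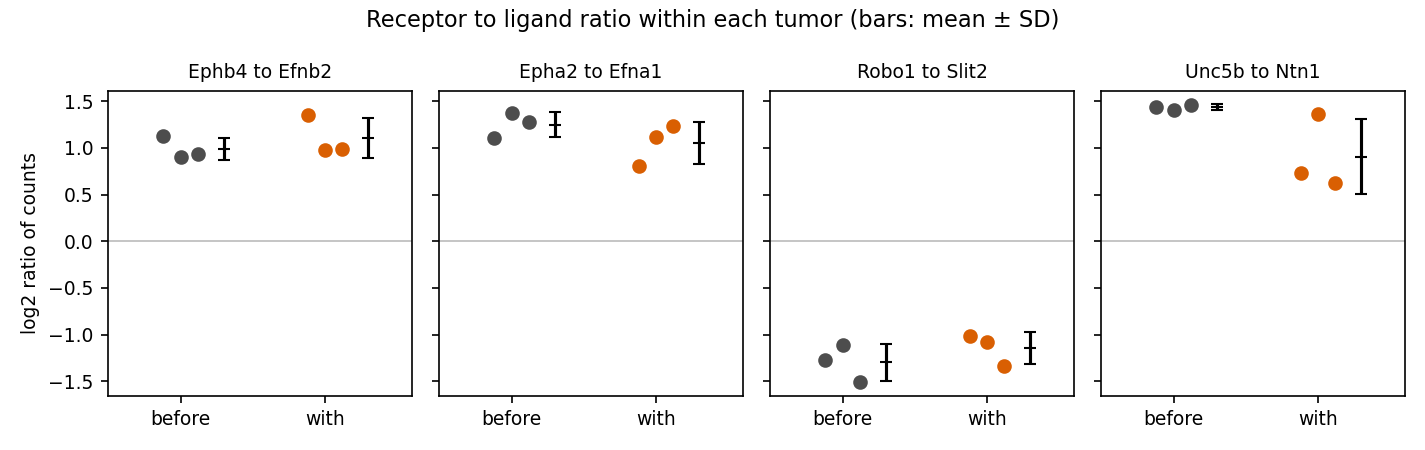
Log2 ratio of receptor to ligand counts in each tumor (points, replicates 1 to 3 from left to right) with the mean ± SD of 3 tumors, for 4 pairs, before and with the peak. Unc5b to Ntn1 is at 1.40 to 1.46 before the peak and 0.62 to 1.36 at the peak, and the other pairs overlap.

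Genes that act with these ligands and receptors were taken from 3 lists, which hold 76 genes with a row, of which 69 were tested. EdgeR called 0 over all genes, as did DESeq2 and limma-voom, and 7 had an unadjusted p under 0.05, 3 higher and 4 lower. These are 10.1% of those tested, close to the 9.5% of all genes over both directions, so the genes named next are examples from a count near that background. By direction, the 4 lower are 5.8%, where 3.38% of all genes were lower and 6.12% higher. The median log2 fold change was -0.05. In the Eph and ephrin list, 26 genes were tested and 2 were below 0.05 (7.69%, against 9.5% of all genes). Sdcbp, the PDZ protein syntenin that binds the tail of ephrin-B, was at 310, 278 and 294 CPM before the peak and 365, 372 and 366 CPM at the peak (log2 fold change 0.32, SE 0.10, edgeR adjusted p = 0.387). Rasa1, a Ras GTPase-activating protein that binds EphB receptors, was at 156, 176 and 140 CPM before the peak and 128, 121 and 123 CPM at the peak (log2 fold change -0.34, SE 0.12). Neither gene overlapped between groups.

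In the Slit and Robo list, 22 genes were tested and 2 were below 0.05 (9.09%, against 9.5% of all genes). Both were lower with peak, where 3.38% of all genes were lower at that level. Flrt3, a membrane protein that binds Robo1 and Unc5 receptors, was at 22.2, 26.5 and 25 CPM before the peak and 19.5, 14.6 and 17.5 CPM at the peak (log2 fold change -0.52, SE 0.17, edgeR adjusted p = 0.397). Dag1, the dystroglycan that binds Slit, was at 199, 192 and 189 CPM before the peak and 162, 144 and 163 CPM at the peak (log2 fold change -0.30, SE 0.10). The groups did not overlap for either gene, nor for 4 others of this list, of which Enah and Arhgap39 were lower and Cdc42 and Myo9b higher. The 6 are 27.3% of the tested genes of this list, against 15.5% of all genes. In the Eph and ephrin list that share was 7.69%, in the netrin list 4.76%, and in the 3 lists together 13%.

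In the netrin list, 21 genes were tested, with 2 higher and 1 lower at a p below 0.05 (14.3%, against 9.5% of all genes). Adora2b, an adenosine receptor also reported to bind netrin-1, was at 4.01, 2.90 and 6.0 CPM before the peak and 7.50, 6.89 and 8.83 CPM with it, without overlap (log2 fold change 0.85, SE 0.32, edgeR adjusted p = 0.466). Hfe2, the hemojuvelin of skeletal muscle and liver that binds neogenin, had 4.93 and 3.98 CPM in the tumors high in muscle markers, with-peak replicates 2 and 3, and 0 to 1.20 CPM elsewhere. Itgb4, the beta subunit of an epithelial integrin that binds netrin, was at 423, 357 and 308 CPM before the peak and 258, 192 and 324 CPM at the peak (log2 fold change -0.49, SE 0.20). Neo1, the neogenin that shares ligands with Dcc, had means of 93.6 ± 12 and 76.0 ± 8.91 CPM (log2 fold change -0.30, SE 0.14).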

How the data were processed

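The authors deposited 1 table of raw gene counts that were not normalized, with a column for each tumor. FastQC, STAR and mm10 are named per the submitters' processing notes; their versions, the counter and the annotation are not stated in these sources. Libraries were not strand-marked per the labels' protocols, so a gene and one overlapping it on the other strand share reads. Of 23508 genes, 23479 matched GENCODE M21, which gave symbols, coordinates and exon lengths. Members and gene lists were chosen with earlier results of these data known, and every member is named. Partner genes are named at an unadjusted p under 0.05, at most 5 per list. In the Slit and Robo list alone, Enah, Arhgap39, Cdc42 and Myo9b are also named, because their groups did not overlap. Neo1, like the shares within a family, was chosen after its values were seen, as were the promoter motifs.

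Counts were fitted with edgeR 4.0.16 (R 4.3.3) after TMM scaling and filterByExpr (minimum count 10, minimum total 15), using the robust quasi-likelihood test, two-sided, with p-values adjusted by Benjamini-Hochberg over all genes tested and called under 0.05. Positive log2 fold changes mean higher with peak, and the SE is the size divided by the square root of F. FPKM are TMM CPM per kilobase of all exons. Log2 CPM and ratios used a prior count of 2. A count of 0 allows up to 3 counts, for counting error only. Chi-square per degree of freedom between tumors of the same group was 18.7 to 32.1, so none is a duplicate. In simulated counts of 16425 genes with the means and spread of these tumors, the test called 47 of 96 genes with a true log2 change of 1. It called 87 of 100 with one of 2, and 7.59% of its calls were false. The tested members ran only from -0.71 (Slit2) to 0.60 (Epha3) in log2 fold change, and changes of that size were not simulated. Alternatives were other scalings and filters, DESeq2 1.42.0, limma-voom 3.58.1, the replicate number as a block, leaving out each tumor, and leaving out with-peak replicates 2 and 3 together. The length by longest coding transcript, also used for the shares within a family, was added after seeing the data.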

Additional observations from a re-analysis of the deposited data

How the results depend on the processing

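Of the members and of the partner genes, 0 were called under each of the 15 alternatives run, with adjustment over all genes tested. Among all genes, 254 (1.52%) were called with DESeq2, 29 of 23503 with no filter on low counts and 1 of 16755 with the replicate block. Calls among all genes were 17 of 17215 without before-peak replicate 2, 13 of 17287 without before-peak replicate 3 and 9 of 17247 without with-peak replicate 1. At an unadjusted p under 0.05, 6 of 27 members were lower with library size alone, where 6.09% of all genes were. Leaving out 1 tumor gave 1 lower (without before-peak replicate 2, 1.98% of all genes) to 5 lower (without before-peak replicate 3, 3.59% of all genes). It gave 0 to 1 higher, with 1 of 29 without with-peak replicate 1 (6.41% of all genes) and 1 of 29 without with-peak replicate 2 (4% of all genes). The fit without both with-peak replicates 2 and 3 assumes that 1 with-peak tumor varies as the before-peak tumors do. Of the 27 tested members, 20 kept their direction in all alternatives, and 18 of 404 pairs of member and alternative turned. Leaving out 1 tumor gave -0.39 to 0.15 for Ephb3, -0.11 to 0.37 for Robo4 and -0.28 to 0.39 for Unc5a, and the lowest values of Efna1 and Efna4 were -0.20 and -0.39. Without before-peak replicate 1, Ephb3 was at 0.10, Ephb4 at 0.01 and Unc5a at -0.21. Without with-peak replicate 1, Ephb3 was at 0.0088, Efna5 at -0.12 and the Ephb4 to Efnb2 ratio at -0.0062; without with-peak replicate 3, Ephb3 was at 0.15 and Unc5a at -0.28. Without with-peak replicate 2, Robo4 was at -0.11 and Unc5a at -0.14; without before-peak replicate 3, Efna5 was at -0.11, and without before-peak replicate 2, Unc5a at -0.08. Without both with-peak replicates 2 and 3, Ephb4 was at 0.19, Efna1 at 0.10, Efna4 at 0.12, Efna5 at 0.39 and Unc5a at -1.21. Unc5a was at -0.048 with library size alone and -0.13 with limma-voom; the cause was not tested. Same-numbered tumors deviated together with correlations of -0.06, -0.10 and 0.03, which shows no pairing. With the replicate number as a block, 3 of 27 members were lower and 0 higher at an unadjusted p under 0.05. Among all genes, 2.27% were lower and 4.62% higher in that fit. With this block 0 members were called, and Unc5a was at -0.046. Leaving out a single tumor moved the log2 fold change of 21 of the 27 members by over 1.5 times or turned it, and took 10 across an unadjusted p of 0.05. Efnb1, Efnb2, Efnb3, Ephb2, Ephb6 and Ntn4 moved by less, but all of these except Efnb3 are among the 10 that crossed. Members under about 1 CPM rest on few counts.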
